A study of Mus musculus with 7 samples.

Results

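The genes described here are 36 regulators, cytokines, chemokines and target genes of the NF-kappaB pathway, out of 23420 genes in a count table of cortical microglia, the resident macrophages of the brain. They were taken by symbol from a written list, and all 36 were found in the table. Microglia were sorted as CD11b+, CD45low, CX3CR1+ cells from cortices taken on postnatal day 30, and poly(A) RNA was sequenced. The cKO libraries (n = 4) came from Tmem119creErt2+ Srgap2f/f mice, in which tamoxifen-activated recombinase made from the Tmem119 locus deletes Srgap2 in microglia. The WT libraries (n = 3) came from Srgap2f/f mice with no recombinase. Both groups carried the floxed alleles, and both were given tamoxifen by gavage (75 ug per g body weight) in 2 doses, on postnatal days 8 and 10. The recombinase was present in the cKO group only, so its effects and those of the Srgap2 deletion cannot be told apart. Each library was from 1 numbered mouse, and the labels give neither sex nor litter.

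NF-kappaB is a family of dimeric transcription factors that inhibitor proteins hold in the cytoplasm. Signals from cytokine and pattern recognition receptors lead to destruction of the inhibitor, and the freed dimer enters the nucleus and switches on cytokines, chemokines and adhesion molecules. It also switches on its own brakes, among them Nfkbia and Tnfaip3, which end the response. In microglia this pathway is a main route to inflammatory cytokines, which are scarce in the undisturbed brain.

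Total counts ranged from 27016173 to 35707304 per library, and the libraries of a group were not repeats of each other (a chi-square test of any pair gave 18.8 to 98.3 per degree of freedom). Srgap2 averaged 272 ± 55.0 CPM (counts brought to a common library size with TMM factors; SD, n = 4) in cKO libraries and 788 ± 165 CPM (SD, n = 3) in WT libraries, a log2 fold change of -1.53 (SE 0.17, edgeR quasi-likelihood adjusted p = 0.0053). All 13 microglia markers were detected, with a summed level of 58289 to 69820 CPM in cKO libraries and 69017 to 72795 CPM in WT libraries, and 1 of them, Tmem119, whose locus drives the recombinase, fell (log2 fold change -0.82, adjusted p = 0.046). Xist, made from the inactive X chromosome, was above 10 CPM in cKO replicates 2 and 4 and in WT replicates 2 and 3, and below 1 CPM in the remaining 3 libraries. Marker genes of astrocytes, oligodendrocytes, neurons and lymphocytes were low. Only 7 of 8, 6 of 9, 3 of 9 and 1 of 11 in this order could be tested. Of those tested 0 passed, beside 0.359% of all genes tested. Their summed levels were 88.5 to 141 CPM in cKO libraries and 135 to 141 CPM in WT libraries for astrocytes, and 224 to 331 CPM and 226 to 256 CPM in the same order for oligodendrocytes. Slc1a3 alone held 74.7 to 130 CPM of the astrocyte sum in cKO libraries and 122 to 127 CPM in WT libraries. Neuron and lymphocyte markers summed to at most 3.89 CPM and 2.19 CPM in any library.

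No gene of the 29 that could be tested passed the adjusted threshold of 0.05, and the levels of most were close in the groups. A filter on low counts kept 29 genes for testing, of which 0 passed in edgeR, against 0.359% of the 11991 genes tested in the whole table (0.0417% lower and 0.317% higher). The count was also 0 in DESeq2 and in limma-voom. It was 5 in limma-voom with sample quality weights, where 904 of the 11991 genes tested passed. At an unadjusted p under 0.05, where 16.5% of all genes tested lie, 6 of the 29 were lower in cKO libraries (background 6.87%) and 2 were higher (background 9.65%). The 6 lower genes were Tnfaip3, Nlrp3, Nfkbid, Nfkbiz, Icam1 and Bcl3, and the 2 higher ones were Il1b and Ccl2. In 4 genes every cKO library was below every WT library (background 7.20%) and in 2 every cKO library was above (background 8.86%). The median log2 fold change of the 29 genes was -0.10, beside -0.01 over all genes tested, and 18 of the 29 were below 0 (background 51.9%). The mean log2 CPM of the 29 genes was 4.05, 4.09, 4.22 and 4.25 in the cKO libraries and 4.04, 4.36 and 4.26 in the WT libraries, which overlapped. For 24 of the 29 the 95% interval of the fold change lay wholly within a 2-fold difference in either direction. The same held for 10132 of the 11991 genes tested, so this was not particular to the members. In bulk samples, fewer cells of a type and less RNA per cell cannot be told apart.

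**Figure D1:**
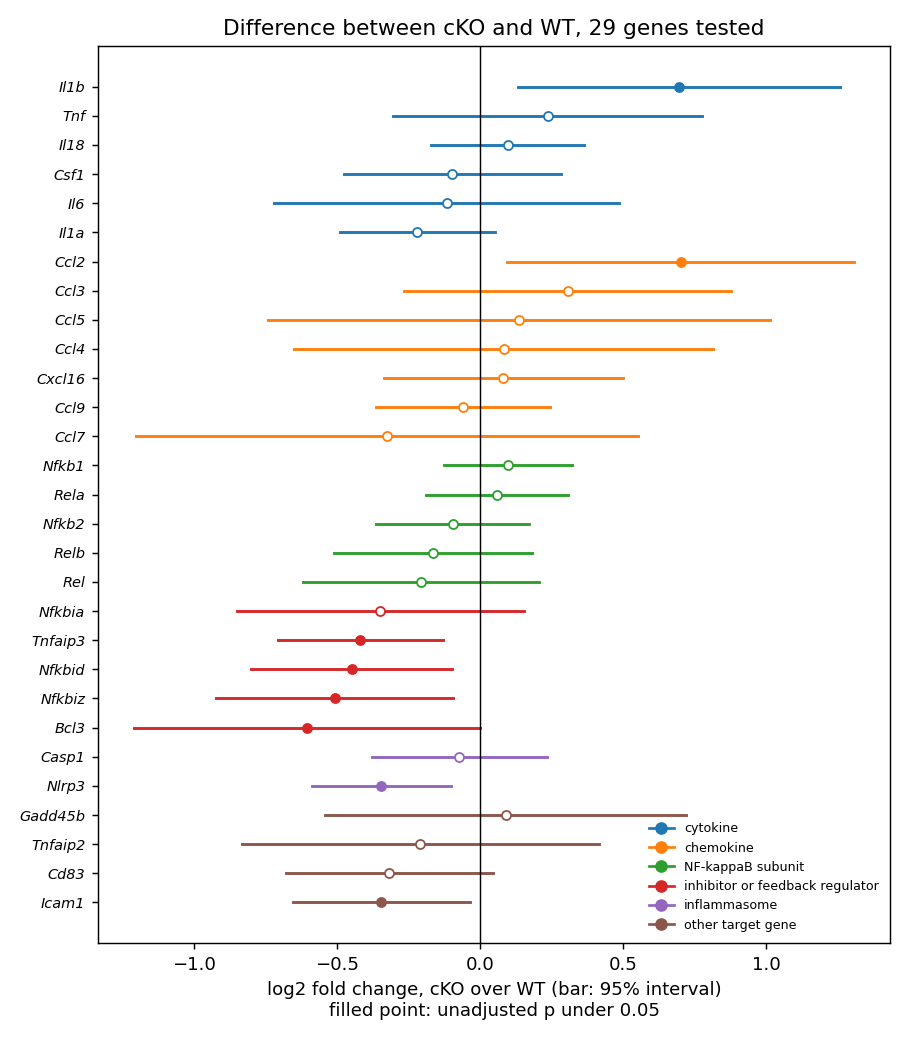
Log2 fold change of cKO over WT for the 29 genes tested, grouped by role, with the 95% interval as a bar; filled points have an unadjusted p under 0.05. All 5 inhibitors and feedback regulators lie below 0, the 5 subunits have intervals that span 0, and Il1b and Ccl2 lie furthest to the right.

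The level of the genes spanned from abundant to absent (the plot of CPM per kilobase by gene). Per kilobase of the longest transcript, Icam1, an adhesion molecule that binds leukocyte integrins, was highest of the 36 by WT mean, at 85.2 CPM per kb in cKO libraries and 108 CPM per kb in WT libraries. Rela followed at 84.0 CPM per kb in cKO libraries and 80.7 CPM per kb in WT libraries, then Ccl9 at 76.2 and Nfkbia at 60.8 CPM per kb in cKO libraries, against 79.5 and 77.4 CPM per kb in WT libraries. Every WT library of Icam1 was above every WT library of Rela, while the cKO libraries of these genes overlapped. The libraries of Rela, Ccl9 and Nfkbia overlapped on this scale, so their order is not settled. Inflammatory cytokines stood far lower, with Tnf at 1.59 CPM per kb in cKO libraries and 1.35 CPM per kb in WT libraries, and Il6 at 0.718 and 0.778 CPM per kb in the same order.

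A group of 7 genes was too scarce to test. Cxcl2, a neutrophil attractant, had 0 counts in all 7 libraries, and its relative Cxcl1 had 1 count in WT replicate 2 and 0 elsewhere. Il10, an anti-inflammatory cytokine, had 0 counts in every cKO library and 6 in WT replicate 3 alone. Ptgs2, the inducible cyclooxygenase, reached 3 counts in cKO replicates 2 and 4 and 1 count in WT replicate 1. Il12b, a subunit of cytokines that steer T cells, had no more than 6 counts in any library. Ccl8, which draws monocytes, had no more than 13, and Il1rn, the interleukin-1 receptor antagonist, had 2 to 22. A count of 3 corresponds to 0.0837 to 0.110 CPM here, so a level below that was not detectable at this depth; this limit covers counting error only.

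**Figure D2:**
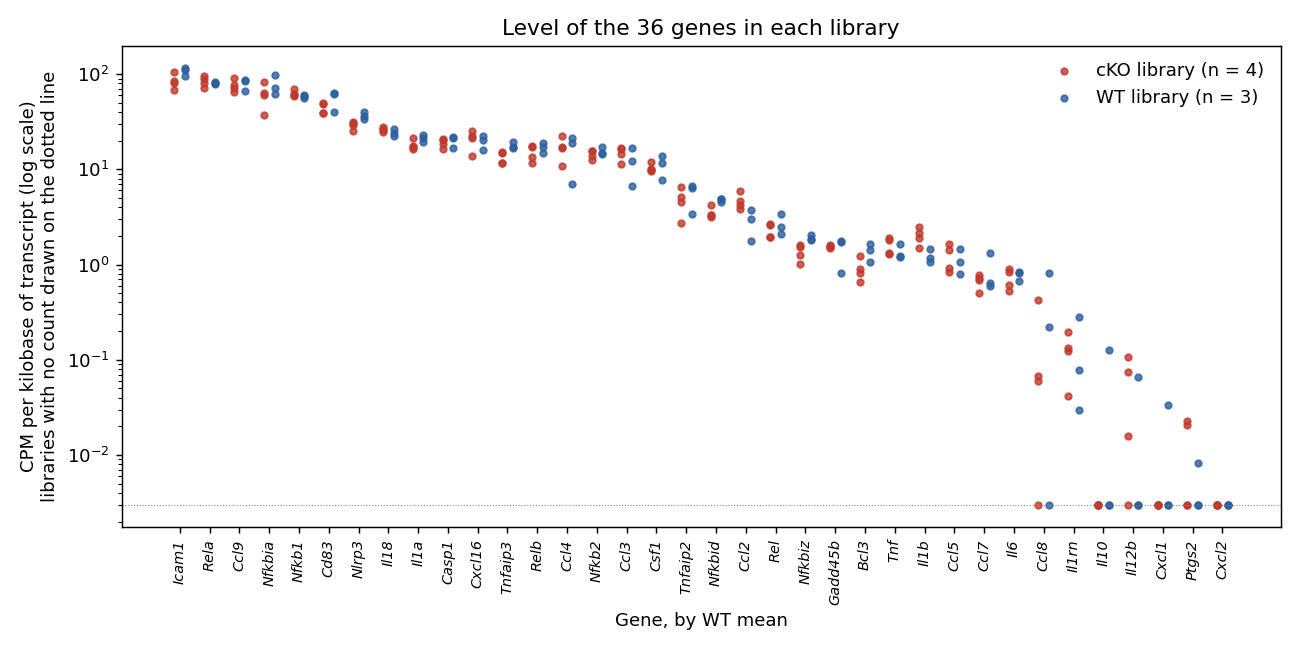
CPM per kilobase of transcript on a log scale for each of the 36 genes, 1 point per library, cKO left of WT for each gene; libraries with no count are drawn on the dotted line. The genes run from Icam1, at 85.2 in cKO and 108 in WT on average, down to Cxcl2, with 0 counts in all 7 libraries.

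The transcription factor subunits were close in the groups, with a median log2 fold change of -0.10 and 0 of 5 at an unadjusted p under 0.05. Nfkb1, whose product is cut to the p50 subunit, was at 286, 240, 255 and 249 CPM in the cKO libraries, listed by replicate number, against 247, 230 and 245 CPM in the WT libraries. Rela, the main activating subunit, was at 195, 242, 219 and 257 CPM in cKO libraries and 220, 214 and 223 CPM in WT libraries. The groups overlapped for both, and the 95% intervals of the log2 fold change were -0.12 to 0.32 for Nfkb1 and -0.19 to 0.31 for Rela. Nfkb2 and Relb, which form the dimer of the alternative branch, had log2 fold changes of -0.10 and -0.16, with intervals of -0.36 to 0.17 and -0.51 to 0.18. Nfkb2 was at 53.2, 60.4, 48.1 and 60.2 CPM in cKO libraries, against 66.2, 56.5 and 55.2 CPM in WT libraries. Relb was at 25.9, 39.2, 29.8 and 38.2 CPM in cKO libraries and 32.7, 37.7 and 41.4 CPM in WT libraries. Rel, the c-Rel subunit, was at 19.9, 14.7, 19.3 and 14.6 CPM in cKO libraries and 25.5, 15.6 and 18.3 CPM in WT libraries, with WT replicate 1 highest of all 7. Adjusted p was at least 0.64 for all 5 in edgeR. The mean log2 CPM of the 5 subunits ran from 6.11 to 6.20 in cKO libraries and from 6.12 to 6.30 in WT libraries.

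The inhibitors and feedback regulators, by contrast, all had lower means in cKO libraries, although 0 of 5 passed the adjusted threshold. Their log2 fold changes ran from -0.61 to -0.35, with a median of -0.45 beside -0.01 over all genes tested, and all 5 stayed below 0 under each scaling tried. Their mean log2 CPM was 3.68, 3.56, 3.71 and 3.82 in the cKO libraries, against 4.07, 4.17 and 4.26 in the WT libraries. The groups did not overlap, which was not particular to this role. The mean log2 CPM of 13 further inhibitors was 5.36 to 5.42 in cKO libraries and 5.44 to 5.58 in WT libraries. That of the 13 microglia markers was 11.32 to 11.50 and 11.52 to 11.59 in the same order. The monocyte and neutrophil markers tested were apart in the other direction, at 1.21 to 1.84 and 0.63 to 1.20. Whether the inhibitors and feedback regulators differ from the subunits was not tested.

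Tnfaip3 encodes A20, an enzyme that edits ubiquitin chains and shuts off signalling to NF-kappaB. It was at 65.2, 67.7, 51.8 and 51.1 CPM in cKO libraries, against 86.6, 74.0 and 75.8 CPM in WT libraries. Every cKO library was below every WT library, and the mean was 74.8% of the WT level (log2 fold change -0.42, SE 0.13, unadjusted p = 0.0083, adjusted p = 0.16 in edgeR). Nfkbid, a nuclear inhibitor of the IkappaB family, was at 6.37, 6.73, 6.74 and 8.67 CPM in cKO libraries, against 9.90, 9.97 and 9.35 CPM in WT libraries. Its groups did not overlap either, with cKO replicate 4 nearest to WT (log2 fold change -0.45, SE 0.16, adjusted p = 0.195). Nfkbiz, which as IkappaB-zeta helps to switch on late target genes, was at 6.27, 5.14, 6.55 and 4.14 CPM in cKO libraries, against 7.71, 8.41 and 7.42 CPM in WT libraries. These groups were also apart, and the mean was 70.4% of the WT level (log2 fold change -0.51, SE 0.19, adjusted p = 0.21).

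Bcl3, an IkappaB-like partner of p50 and p52 dimers, was scarce, at 1.21, 1.52, 1.67 and 2.27 CPM in cKO libraries and 1.97, 2.63 and 3.01 CPM in WT libraries. The groups overlapped through cKO replicate 4 and WT replicate 1, and the log2 fold change was -0.61 (SE 0.28, unadjusted p = 0.0496, adjusted p = 0.30 in edgeR). Nfkbia, the classical inhibitor that retains dimers in the cytoplasm, varied widely, at 101, 59.3, 94.4 and 129 CPM in cKO libraries and 98.7, 112 and 156 CPM in WT libraries. Its log2 fold change of -0.35 (95% interval -0.85 to 0.15) was within the spread between mice, and it shrank to -0.18 when cKO replicate 2 was left out and to -0.13 when WT replicate 3 was left out.

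**Figure D3:**
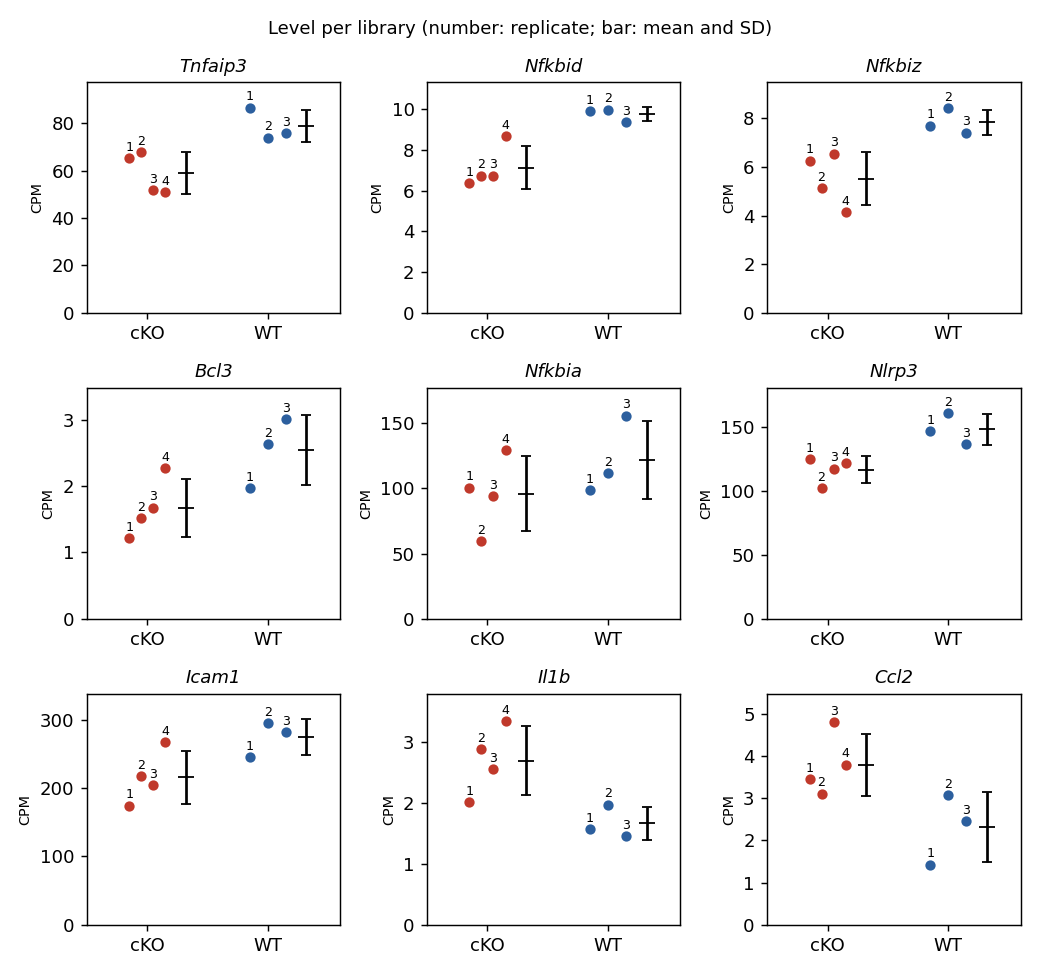
CPM per library for the 5 inhibitors and feedback regulators and for Nlrp3, Icam1, Il1b and Ccl2, with the replicate number above each point and the group mean and SD beside it (cKO n = 4, WT n = 3). Tnfaip3, Nfkbid, Nfkbiz and Nlrp3 have every cKO library below every WT library, and Il1b and Ccl2 every cKO library above.

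Nfkbia and Tnfaip3 are known targets of the pathway they restrain. The promoters of the genes described here were searched for the letters that NF-kappaB dimers bind. Promoter windows of RefSeq (GRCm38.p6, from 250 bases before to 50 bases after an annotated start) were given for 26 of the 36 genes. They were scanned for exact matches to the 10-base kappaB consensus on both strands, a place that matches on both being counted once. A match stood in 12 of the 26 genes (46.2%), beside 5.14% of all genes with a window, and in 14 of the members' 34 windows (41.2%), beside 4.51% of all windows. It stood in 4 of 4 inhibitors and feedback regulators with a window, in 2 of 3 subunits, in 3 of 5 chemokines, in 2 of 8 cytokines, in 1 of 2 inflammasome genes and in 0 of 4 other target genes. Cxcl1 and Cxcl2 hold the same match in different surroundings and had 1 and 0 counts over all libraries. A match describes letters and shows no binding. Looser or partial matches were not searched. The match whose first base lies nearest to an annotated start is shown within 30 bases of the gene's own strand, with the match in capitals and GRCm38.p6 coordinates, for the inhibitors, the subunits, Nlrp3, the silent chemokines and Il6:
Tnfaip3 (chr10:19015403-19015432, minus strand): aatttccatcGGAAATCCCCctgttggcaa
Nfkbid (chr7:30422215-30422244, plus strand): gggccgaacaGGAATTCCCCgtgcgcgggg
Nfkbia (chr12:55492657-55492686, minus strand): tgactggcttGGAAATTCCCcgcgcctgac
Bcl3 (chr7:19822734-19822763, minus strand): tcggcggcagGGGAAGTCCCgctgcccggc
Nfkb2 (chr19:46305695-46305724, plus strand): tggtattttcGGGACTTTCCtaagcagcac
Rel (chr11:23771041-23771070, minus strand): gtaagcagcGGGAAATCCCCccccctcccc
Nlrp3 (chr11:59541373-59541402, plus strand): ggcttctgcaGGGAACCCCCgggaattctg
Cxcl1 (chr5:90891165-90891194, plus strand): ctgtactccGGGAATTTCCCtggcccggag
Cxcl2 (chr5:90903793-90903822, plus strand): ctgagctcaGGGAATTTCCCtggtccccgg
Il6 (chr5:30013060-30013089, plus strand): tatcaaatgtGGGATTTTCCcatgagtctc

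For the gene of this role with the smallest p, Tnfaip3, and for the classical inhibitor Nfkbia, the 250 bases before a start are shown whole, so that the place of each match can be seen. The Tnfaip3 window (GRCm38.p6, chr10:19015411-19015660, minus strand) holds 2 matches, which begin at -125 and -12 counted from the start as 0. The Nfkbia window (GRCm38.p6, chr12:55492648-55492897, minus strand) holds 1 match, which begins at -29. Capitals mark the matches:
Tnfaip3: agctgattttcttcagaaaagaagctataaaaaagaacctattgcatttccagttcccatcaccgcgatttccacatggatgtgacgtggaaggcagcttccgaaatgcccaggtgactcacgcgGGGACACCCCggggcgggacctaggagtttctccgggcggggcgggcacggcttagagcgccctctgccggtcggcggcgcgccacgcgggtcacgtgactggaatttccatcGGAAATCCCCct
Nfkbia: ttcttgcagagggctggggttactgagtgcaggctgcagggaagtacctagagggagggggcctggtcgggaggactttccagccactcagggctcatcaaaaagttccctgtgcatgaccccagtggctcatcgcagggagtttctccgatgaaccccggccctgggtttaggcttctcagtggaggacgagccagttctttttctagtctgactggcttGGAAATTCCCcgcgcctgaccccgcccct

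Of the 2 inflammasome genes, 1 had groups that were apart. Nlrp3, the sensor that assembles the inflammasome, was at 125, 102, 118 and 122 CPM in cKO libraries, against 147, 161 and 137 CPM in WT libraries. No cKO library reached the lowest WT library (log2 fold change -0.34, SE 0.11, unadjusted p = 0.0094, adjusted p = 0.16 in edgeR). Casp1, the protease that cuts the precursors of interleukin-1 beta and interleukin-18, was at 31.5, 27.9, 30.7 and 24.2 CPM in cKO libraries and 25.3, 31.8 and 33.0 CPM in WT libraries. Its groups overlapped, with a log2 fold change of -0.07 (95% interval -0.38 to 0.23).

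Among the 6 cytokines tested, 3 had a log2 fold change below 0, and Il1b alone had groups that were apart. Il1b, the secreted interleukin-1 that the inflammasome matures, was at 2.01, 2.88, 2.55 and 3.34 CPM in cKO libraries, against 1.57, 1.97 and 1.45 CPM in WT libraries. All cKO libraries were above all WT libraries, the nearest pair being cKO replicate 1 and WT replicate 2. The log2 fold change was 0.70 (SE 0.26, 95% interval 0.13 to 1.26, adjusted p = 0.21 in edgeR), on 58 to 109 counts per cKO library and 43 to 62 counts per WT library. Il1a, the other agonist of the same receptor, was far more abundant and lay on the other side of 0. It was at 34.8, 34.3, 41.8 and 32.3 CPM in cKO libraries, against 41.7, 45.4 and 37.8 CPM in WT libraries, with overlap through cKO replicate 3 (log2 fold change -0.22, SE 0.12, adjusted p = 0.41).

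The remaining cytokines overlapped between the groups. Il18, which the inflammasome also matures, was at 23.2, 22.8, 21.6 and 24.9 CPM in cKO libraries and 19.8, 21.4 and 23.7 CPM in WT libraries. Csf1, a growth factor that keeps microglia alive, was at 40.9, 41.8, 40.4 and 49.9 CPM in cKO libraries and 32.4, 57.6 and 48.7 CPM in WT libraries, which enclosed the cKO range. Tnf was at 2.18, 2.13, 2.99 and 3.13 CPM in cKO libraries and 2.67, 2.03 and 1.95 CPM in WT libraries. Il6, an acute-phase cytokine, ran from 1.23 to 2.11 CPM in cKO libraries and from 1.59 to 1.97 CPM in WT libraries. The log2 fold changes of Tnf and Il6 were 0.24 and -0.12, with intervals of -0.30 to 0.78 and -0.72 to 0.49, wider than those of the abundant cytokines.

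Of the 7 chemokines tested, 2 had a log2 fold change below 0, the median was 0.08, and Ccl2 alone had groups that were apart. This attractant of monocytes was at 3.46, 3.11, 4.81 and 3.80 CPM in cKO libraries, against 1.43, 3.08 and 2.46 CPM in WT libraries. The gap between cKO replicate 2 and WT replicate 2 was small, and the log2 fold change was 0.70 (SE 0.28, 95% interval 0.10 to 1.31, adjusted p = 0.23 in edgeR). Without WT replicate 1, the lowest library for Ccl2, it was 0.46 (unadjusted p = 0.10 in edgeR). Il1b and Ccl2 are also made by monocytes and border macrophages. Of 10 monocyte and neutrophil markers in the table, 5 were tested, and their mean log2 CPM was 1.21 to 1.84 in cKO libraries and 0.63 to 1.20 in WT libraries, with Retnlg at 0 counts everywhere. The summed level of the 10 was 14.7 to 19.0 CPM in cKO libraries and 10.7 to 14.8 CPM in WT libraries. The 8 border macrophage markers summed to 67.9 to 132 CPM in cKO libraries and 73.1 to 111 CPM in WT libraries. The part of these cells in the Il1b and Ccl2 values was not tested.

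Ccl3 and Ccl4, neighbouring genes whose products attract immune cells, were low in the same libraries. Ccl3 was at 8.76, 11.0, 12.7 and 12.6 CPM in cKO libraries and 5.15, 12.7 and 9.40 CPM in WT libraries. Ccl4 was at 7.13, 11.0, 14.7 and 11.2 CPM in cKO libraries and 4.64, 14.0 and 12.6 CPM in WT libraries. WT replicate 1 was lowest and cKO replicate 1 second lowest for both. Their log2 fold changes of 0.31 (95% interval -0.27 to 0.88) and 0.08 (-0.65 to 0.81) did not exceed the spread between mice, and without WT replicate 1 they were 0.03 and -0.27.

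Ccl9, a chemokine of the macrophage lineage, was the most abundant chemokine, at 196, 232, 213 and 275 CPM in cKO libraries and 201, 258 and 258 CPM in WT libraries. Cxcl16, a membrane-bound ligand of Cxcr6, was at 36.9, 57.8, 59.8 and 68.0 CPM in cKO libraries and 42.8, 59.8 and 55.2 CPM in WT libraries. The groups of both overlapped. Il1a, Nfkb2 and Cxcl16 overlap genes of the opposite strand in the annotation (Gm14023, Psd and Zmynd15). Il1b, Icam1, Bcl3 and Tnfaip2 overlap opposite-strand genes that are not among the counted genes (Il1bos, Gm47079, Gm16175 and Gm40578). How reads were split between strands is not given in the sources used here, so the counts of all these members are uncertain. Ccl5, which draws lymphocytes, was at 0.866, 0.440, 0.765 and 0.490 CPM in cKO libraries and 0.767, 0.571 and 0.419 CPM in WT libraries. Ccl7, which draws monocytes, was at 0.554, 0.406, 0.619 and 0.582 CPM in cKO libraries and 0.512, 1.05 and 0.474 CPM in WT libraries. Their log2 fold changes of 0.14 and -0.32 had SEs of 0.40 each, and their intervals reached a 2-fold difference, and without WT replicate 2 that of Ccl7 was 0.12.

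Of the remaining target genes, Icam1 was lower in cKO libraries at an unadjusted p = 0.032, with adjusted p = 0.25 in edgeR. It was at 174, 217, 205 and 267 CPM in cKO libraries, against 245, 296 and 282 CPM in WT libraries, and cKO replicate 4 overlapped WT replicate 1. Its log2 fold change was -0.35 (SE 0.14). Endothelial cells also make Icam1. The 10 endothelial and mural markers summed to 63.8 to 83.2 CPM in cKO libraries and 78.6 to 87.0 CPM in WT libraries. Pecam1 alone held 51.8 to 68.5 CPM of this in cKO libraries and 65.5 to 73.7 CPM in WT libraries. No other marker of the list was above 6.03 CPM in any library, and Cldn5 and Rgs5 had 0 counts. The part of endothelial cells in the Icam1 value was not tested. Cd83, a surface protein of activated antigen-presenting cells, was at 96.2, 119, 97.6 and 123 CPM in cKO libraries and 98.2, 152 and 158 CPM in WT libraries, with a log2 fold change of -0.32 (95% interval -0.68 to 0.04). Tnfaip2, a gene induced by tumour necrosis factor, was at 10.4, 19.2, 17.1 and 24.8 CPM in cKO libraries and 12.6, 25.2 and 24.1 CPM in WT libraries. In Cd83 and Tnfaip2 the libraries cKO replicate 1 and WT replicate 1 were the lowest of their groups. Gadd45b, a stress-induced gene, was at 1.90 to 2.04 CPM in cKO libraries and 1.06 to 2.29 CPM in WT libraries.

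**Figure D4:**
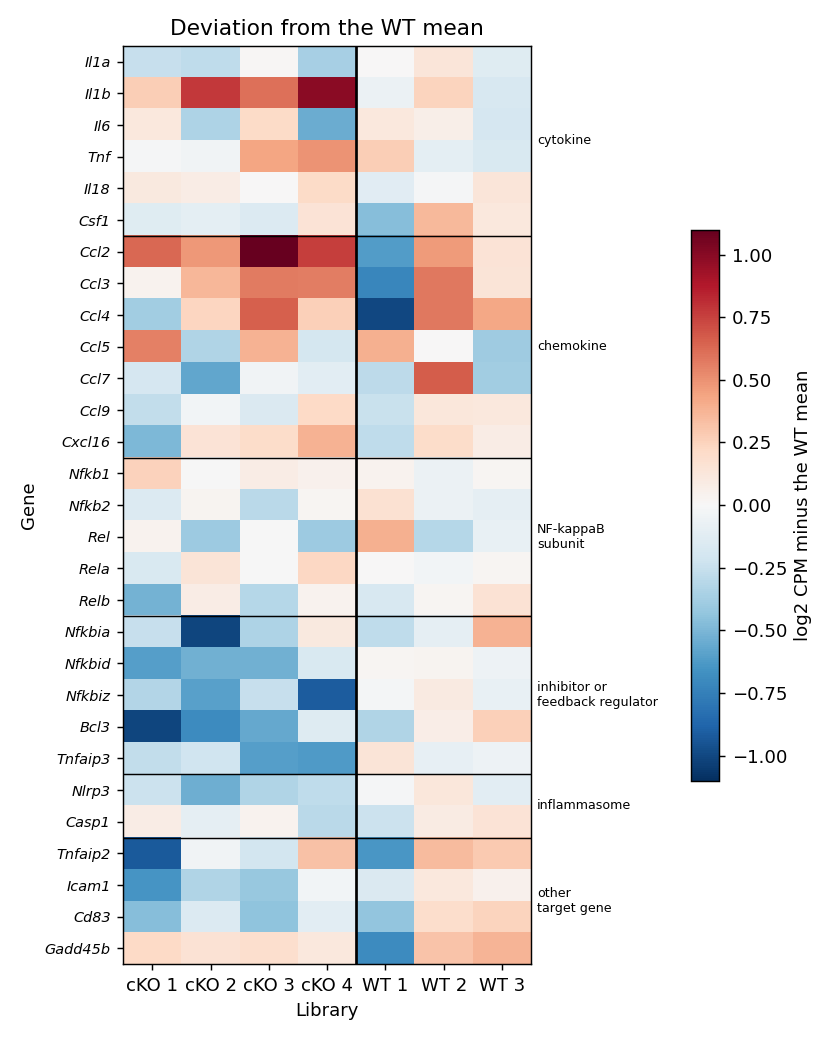
Log2 CPM minus the WT mean for the 29 genes tested (rows, by role) in each library (columns, cKO left of WT). The rows of Nfkbid, Nfkbiz, Tnfaip3, Bcl3, Nlrp3, Icam1, Cd83 and Ccl7 are below 0 in all 4 cKO libraries. The WT replicate 1 column is furthest below 0 in Ccl4, Ccl3, Gadd45b, Tnfaip2, Ccl2, Csf1 and Cd83.

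The differences were also taken apart by Xist. In the libraries with Xist (n = 2 cKO and 2 WT) the median difference of the 29 genes between the groups was -0.21 on the log2 CPM scale, with 20 of 29 below 0. In the libraries without it (n = 2 cKO and 1 WT) it was 0.03, with 14 of 29 below 0. The median over all genes was not taken in this split or in that by mouse number. A shift shared by all genes therefore cannot be told from one of the members. Tnfaip3 differed by -0.35 in the libraries with Xist and by -0.58 in the others, Nfkbid by -0.33 and -0.59, Nfkbiz by -0.77 and -0.26, and Nlrp3 by -0.41 and -0.27. Il1b differed by 0.85 and 0.51, and Ccl2 by 0.32 and 1.48. The groups of these 6 genes do not overlap over all libraries, so their sign is fixed in any split and only the sizes are informative. Ccl4 differed by -0.25 in the libraries with Xist and by 1.13 in the others. The libraries without Xist include a single WT mouse, so no test was made within them. The mouse numbers in the labels also fall into a low and a high run. The median difference was -0.04 in the low run (n = 2 cKO and 1 WT) and -0.17 in the high run (n = 2 cKO and 2 WT). In the low run Tnfaip3 differed by -0.38, Nfkbid by -0.59, Nfkbiz by -0.44, Bcl3 by -0.52 and Nfkbia by -0.35. In the high run the same genes differed by -0.54, -0.33, -0.60, -0.52 and -0.26. Other members changed sign between the low and the high run, among them Ccl4 (0.93 and -0.04), Gadd45b (0.88 and -0.19) and Csf1 (0.35 and -0.24).

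The pathway beyond the 36 genes was read from lists of receptors, adaptors with kinases, further inhibitors and immediate early genes, and 0 genes of these lists passed the adjusted threshold in edgeR. Among receptors of these cytokines, 2 of 12 tested were lower and 0 higher at an unadjusted p under 0.05 (background 6.87% lower and 9.65% higher, here and for the lists that follow). Il10ra, the ligand-binding chain for Il10, was at 797, 911, 935 and 992 CPM in cKO libraries, against 1197, 1115 and 1165 CPM in WT libraries (log2 fold change -0.35, SE 0.11, adjusted p = 0.15). Tnfrsf1b, a receptor for tumour necrosis factor, was at 533, 579, 584 and 628 CPM in cKO libraries, against 738, 658 and 704 CPM in WT libraries (log2 fold change -0.27, SE 0.10, adjusted p = 0.22). The median log2 fold change of the 12 receptors was -0.28, beside -0.01 over all genes.

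Adaptors and kinases showed both directions, with 2 of 19 lower and 3 of 19 higher at an unadjusted p under 0.05, shares of 10.5% and 15.8%, and a median of -0.10. Irak1, a kinase below the interleukin-1 receptor, averaged 111 ± 6.68 CPM in cKO libraries (SD, n = 4) and 88.0 ± 10.4 CPM in WT libraries (SD, n = 3). Map3k14, the kinase that starts the alternative branch, averaged 60.2 ± 6.17 and 73.0 ± 3.44 CPM in the same order. Of 13 further inhibitors tested, 3 were lower and 0 higher, with a median of -0.08. Zc3h12a, an enzyme that degrades cytokine mRNAs, was at 17.8, 17.0, 18.1 and 20.8 CPM in cKO libraries, against 26.9, 24.2 and 22.1 CPM in WT libraries (log2 fold change -0.40, SE 0.13, adjusted p = 0.16). Zfp36, which binds cytokine mRNAs and speeds their decay, was at 86.3, 99.1, 108 and 104 CPM in cKO libraries, against 128, 116 and 135 CPM in WT libraries (log2 fold change -0.35, SE 0.11, adjusted p = 0.17). Zfp36 is also on the list of immediate early genes.

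Cytokine and feedback genes can also be switched on while tissue is dissociated, so immediate early genes are set beside them. Of 24 tested, 3 were lower and 3 higher at an unadjusted p under 0.05, with a median log2 fold change of 0.23. Their mean log2 CPM was 4.03, 3.95, 4.29 and 4.22 in the cKO libraries, and 3.73, 3.98 and 4.15 in the WT libraries. Btg2 averaged 189.9 ± 5.53 CPM in cKO libraries (SD, n = 4) and 237 ± 7.96 CPM in WT libraries (SD, n = 3), and Hsp90aa1, a heat shock protein, 65.4 ± 12.1 and 42.9 ± 3.21 CPM in the same order. The mean of the immediate early genes overlapped between the groups, but it pools genes of both directions. In 3 of the 24 every cKO library was below every WT library (background 7.20%). In another 3 every cKO library was above (background 8.86%). The part of the immediate early genes in the members' values was not tested.

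**Figure D5:**
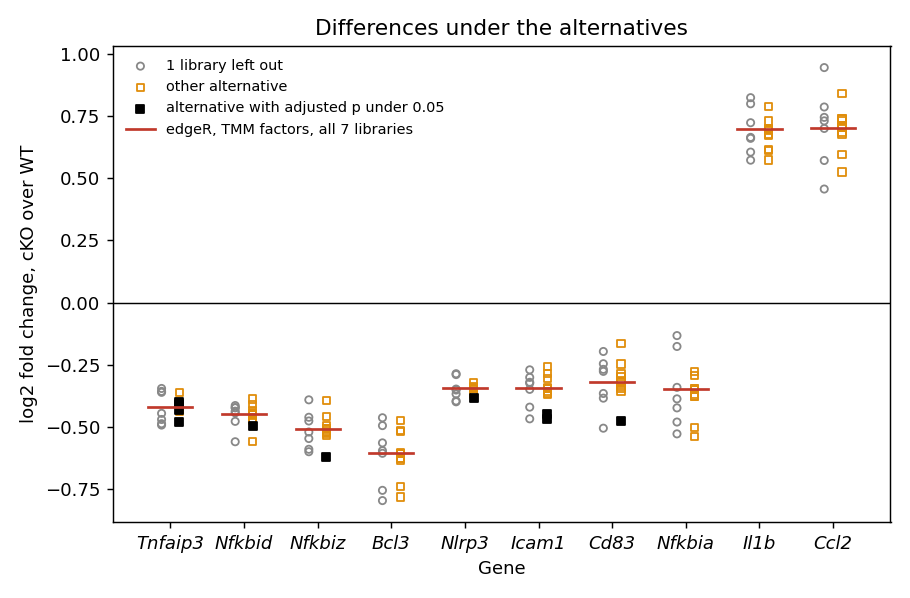
Log2 fold change of cKO over WT for 10 genes under each of 19 alternatives: circles leave out 1 library, squares change the scaling, test, filter or covariates, filled black squares have an adjusted p under 0.05, and the red line is the value with all 7 libraries. Each of the 10 genes keeps its sign throughout, and the black squares belong to Tnfaip3, Nfkbid, Nfkbiz, Nlrp3, Icam1 and Cd83. The groups of Tnfaip3, Nfkbid, Nfkbiz, Nlrp3, Il1b and Ccl2 do not overlap, so their circles could hardly change sign.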

How the data were processed

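Reads were counted per gene by the authors before they deposited the table of raw counts; the submitters' processing notes name DRAGEN and GRCm39, and for the annotation, counting rule and strand setting the entry is: not given in the sources used here. All 7 libraries had a column of counts, and each was taken as 1 mouse, since the labels number the mice. Total counts ran from 27016173 to 35707304, which gave Il1b, at about 2 CPM, 43 to 109 counts per library.

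Genes were kept with edgeR 4.0.16 (filterByExpr, minimum count 10, minimum total 15), scaled by TMM and tested with the robust quasi-likelihood test over 11991 genes, cKO against WT with no covariate, with Benjamini-Hochberg adjustment and a threshold of 0.05. The SE is the fold change over the root of F, and intervals are 95%. Log2 CPM used a prior count of 2. Limma 3.58.1 and DESeq2 1.42.0 served as alternatives (R 4.3.3), and the fit was tested on simulated data. CPM per kb used the longest GENCODE M21 transcript. The members and all lists were chosen with earlier results of these data known, so no test is given for a list. Every member is named. Values per library are given where the unadjusted p was under 0.05, where the groups were apart, and for the 3 most abundant genes of a role. Of the other pathway lists, the 2 genes with the smallest p are named, and the marker lists are given by their summed levels. Promoter sequences are from RefSeq (GRCm38.p6), a build other than that of the counts, and no coordinates were joined between the builds.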

Additional observations from a re-analysis of the deposited data

Results flagged for a closer look

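In cKO replicate 4, Csf1 stood at 49.9 CPM, far above the other cKO libraries at 40.4 to 41.8 CPM (gap over range 0.860, above Dixon's critical value for 4 libraries). Nfkbid in the same library was at 8.67 CPM, above the other cKO libraries at 6.37 to 6.74 CPM (gap over range 0.842). Of the 29 genes and 20 gene groups examined in this way, 2 stood out, and chance picks out about 1 in 20. Without this library the log2 fold change of Nfkbid was -0.56 and that of Csf1 was -0.18.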

How the results depend on the processing

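Over the whole table, 43 genes passed, against 538 in DESeq2, 904 in limma-voom with quality weights, 89 with no filter, 288 with the replicate block, 170 with a block for low against high mouse numbers, 1056 with Xist as a covariate and 646 with GC and length offsets, and from 4 (without WT replicate 2) to 142 (without cKO replicate 1) with 1 library left out. Of the members, 0 passed; 5 did with quality weights (Tnfaip3, Nlrp3, Nfkbid, Icam1, Cd83), 1 with the replicate block (Icam1), 1 with the mouse-number block (Tnfaip3), 2 with Xist (Tnfaip3, Nfkbiz) and 1 with GC and length offsets (Tnfaip3). Adjusted p ranged over the 19 alternatives from 0.040 to 0.40 for Tnfaip3, from 0.040 to 0.45 for Nlrp3 and from 0.045 to 0.45 for Nfkbid, and their unadjusted p was under 0.05 in all 19; for Nfkbiz that held in 17, Il1b 16, Ccl2 16, Icam1 14 and Bcl3 10. With 1 library left out, the 6 genes lower at an unadjusted p became 3 (without WT replicate 2) to 7, and the 2 higher ones 1 to 3. The share of all genes tested moved too, from 4.35% (without WT replicate 2) to 8.86% lower and from 6.35% to 10.7% higher. The replicate block gave 1 higher, beside 12.2% of all genes tested. The members' median stayed between -0.20 and -0.04. All 5 inhibitors and feedback regulators lay below 0 in every alternative. For Tnfaip3, Nfkbid and Nfkbiz the groups do not overlap, so leaving out 1 library could hardly turn their sign.

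The labels do not say whether replicate numbers pair the mice. The deviations of same-numbered cKO and WT libraries correlated at 0.39, 0.07 and -0.17, and those of other pairs at -0.37 to 0.38. So few pairs cannot settle the question. Some signs turned. With the replicate block, Cxcl16 became -0.046, Rela -0.0093, Il6 7.3e-05 and Casp1 0.0067. With quality weights, Gadd45b became -0.059, Rel 0.0033, Cxcl16 -0.0100 and Ccl4 -0.028. With Xist, Ccl5 became -0.11, Ccl9 0.043, Tnfaip2 0.036 and Csf1 0.045, and with GC and length offsets Ccl5 -0.011, Ccl4 -0.073, Nfkb2 0.0095 and Il18 -0.082. Leaving out 1 library gave -0.18 to 0.27 for Gadd45b, -0.36 to 0.014 for Rel, -0.046 to 0.22 for Cxcl16, -0.54 to 0.12 for Ccl7, -0.064 to 0.37 for Ccl5, -0.27 to 0.34 for Ccl4, -0.0063 to 0.11 for Rela, -0.30 to 0.078 for Csf1, -0.24 to 0.012 for Il6 and -0.18 to 0.0021 for Casp1. The cause of these changes was not tested. Of the 10 genes under a mean of 10 CPM, 5 had intervals within a 2-fold difference, against 19 of 19 above it. Counting error and the spread between mice both enter these intervals, and their parts were not tested.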
